A study of Mus musculus with 8 samples.

Results

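A set of 10 genes of the p53 pathway and of cellular senescence is described here in the mouse aorta: Trp53, Mdm2, Cdkn1a, Cdkn2a, Cdkn2b, Gdf15, Gadd45a, Bax, Ccng1 and Trp53inp1. They were chosen by name, with earlier results of these data known, as 10 of the 48587 gene symbols counted. Shares of these genes set against all genes below are therefore descriptions. Of the 10, 9 passed the filter on low counts that left 16194 genes for testing. Cdkn2a did not pass it. Each of the other 9 had at least 19 counts in every one of the 8 libraries, so none passed through a single group.

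RNA of the whole aortic tree was sequenced as poly-A enriched libraries in 4 groups of 2 libraries. Tet2KO_VitD and Tet2KO_vehicle are libraries labelled as a Tet2 knockout limited to vascular smooth muscle cells, given VitD (vitamin D) or vehicle. WT_VitD and WT_vehicle are libraries labelled wild type, from litter controls, given the same agents. Excess vitamin D calcifies the arterial media of rodents, and TET2 oxidises methylated cytosine in DNA. The series title names Tet2, the osteogenic change of smooth muscle and medial calcification as its subject. The labels used here give no dose, duration, age, sex or Cre driver, and do not say whether animals were pooled. Since no label ties the 2 libraries of a group to different mice, the p-values speak only of the variation from library to library, part of which may be technical.

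The protein p53, encoded by Trp53 in mice, is a transcription factor whose amount is set mainly by protein turnover: MDM2 marks it for degradation, and DNA damage or other stress releases it. It then raises a set of genes that halt the cell cycle (Cdkn1a, which encodes p21), repair or sense damage (Gadd45a), promote cell death (Bax, Trp53inp1) or feed back on p53 itself (Mdm2, Ccng1). Senescent cells are held out of the cycle by p21 and by the inhibitors of the Cdkn2a and Cdkn2b locus, and secrete cytokines and proteases, while in vascular smooth muscle senescence has been linked to calcification. Cdkn1a, Gdf15 and Gadd45a are also raised by pathways that do not need p53.

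The libraries held 15679274 to 22332149 counts. Tet2 was not lower in the libraries labelled Tet2KO, at 26.6 and 37.6 CPM (counts scaled to a common library size) in Tet2KO_VitD against 18.3 and 20.04 CPM in WT_VitD, and 42.03 and 35.2 CPM in Tet2KO_vehicle against 35.8 and 32.2 CPM in WT_vehicle. Which exons were deleted is not stated and other cell types of the aorta keep the gene, so this is a partial check, and every genotype direction below rests on the label. The 5 smooth muscle markers Acta2, Myh11, Tagln, Cnn1 and Smtn summed to 19713 to 27338 CPM in Tet2KO_VitD, 27016 to 29017 in Tet2KO_vehicle, 14711 to 21937 in WT_VitD and 28270 to 29135 in WT_vehicle. The 5 macrophage markers Cd68, Adgre1, Csf1r, Lyz2 and C1qa summed to 998 to 1870 CPM, 517 to 632, 1838 to 2179 and 398 to 423 CPM in the same groups. In bulk tissue, fewer cells of a type and less RNA per cell cannot be told apart. In WT all 4 skeletal muscle and all 4 mesothelial markers were also called higher with VitD, at summed levels of 86.0 to 318 and 79.6 to 170 CPM in WT_VitD against 24.0 to 28.7 and 27.5 to 28.7 CPM in WT_vehicle. The library names carry numbers that fall into a higher range (Tet2KO_VitD 1, WT_VitD 1 and WT_VitD 2) and a lower range (the other 5 libraries). The labels do not say what the numbers mean. The share of counts in ribosomal protein genes was 4.26 to 4.84% for the higher range and 1.87 to 2.29% for the lower. In WT the range and the treatment cannot be told apart, since both VitD libraries lie in the higher range and both vehicle libraries in the lower.

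Cdkn1a and Ccng1 are shown first as sequence because, of the 12 promoter windows found for 9 of the genes (all but Trp53inp1), theirs came closest to a p53 response element. The element is a pair of adjoining p53 half-sites of 10 bases each. A window runs from 250 bases before to 50 after a RefSeq start (GRCm38.p6). It was read on the strand of the gene, which covers both strands because the half-site pattern is its own reverse complement. In each line below the capitals mark the 20 bases of the best match, read on the strand of the gene. Cdkn1a and Ccng1 have 1 mismatch to the element each, and Bax has 3.
Cdkn1a, upstream start, chr17:29090898-29090977, plus strand: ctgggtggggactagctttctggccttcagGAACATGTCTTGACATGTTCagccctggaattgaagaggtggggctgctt
Ccng1, chr11:40755432-40755511, minus strand: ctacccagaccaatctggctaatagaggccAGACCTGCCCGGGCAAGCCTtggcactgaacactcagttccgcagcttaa
Bax, chr7:45467060-45467139, minus strand: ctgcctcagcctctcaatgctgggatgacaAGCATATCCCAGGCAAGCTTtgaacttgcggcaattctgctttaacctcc
The match of Cdkn1a begins 51 bases before its start and that of Ccng1 195 bases before. As few as 1 mismatch was found in 29 of 32841 mouse promoter windows, 0.0883%. Bax is shown as the next step down, with 3 mismatches, which 6.29% of windows reach, as do those of Trp53 and Gadd45a. The best matches of Mdm2, Cdkn2b, both Gdf15 windows and the other Cdkn1a start have 5 mismatches, as few as 76.6% of all windows hold, and both Cdkn2a windows have 6. At least 1 half-site without a mismatch stood in windows of Trp53, Mdm2, Cdkn1a (upstream start), Gadd45a, Bax and Ccng1, and in 8.36% of all windows. The elements known in Mdm2 and Gadd45a lie within introns and were not searched. These are matches of letters, and binding of p53 was not measured.

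Neither the transcript of p53 itself nor that of its main inhibitor passed the test in any comparison. Trp53 (chromosome 11, 69580359 to 69591873, plus strand, mm10) had 52.7 and 66.8 CPM in Tet2KO_VitD against 57.8 and 49.6 CPM in Tet2KO_vehicle, and 51.9 and 61.0 CPM in WT_VitD against 49.1 and 57.9 CPM in WT_vehicle. The VitD and vehicle values overlap in both genotypes. The log2 fold change of VitD over vehicle was 0.16 in Tet2KO and 0.08 in WT (SE 0.193, 95% interval -0.36 to 0.51), for which edgeR's quasi-likelihood test with Benjamini-Hochberg adjustment over all 16194 genes gave an adjusted p of 0.722 in Tet2KO and 0.790 in WT. All adjusted p-values below come from that test unless DESeq2 is named. Mdm2 (chromosome 10, 117688875 to 117710758, minus strand), the ubiquitin ligase of p53 and itself a p53 target, had 75.0 and 76.7 CPM in Tet2KO_VitD against 64.4 and 71.8 CPM in Tet2KO_vehicle, and 71.6 and 69.0 CPM in WT_VitD against 79.5 and 55.7 CPM in WT_vehicle. Its 2 libraries differ most in WT_vehicle, and the WT groups overlap while the Tet2KO groups do not. The log2 fold change of Mdm2 was 0.16 in Tet2KO (adjusted p = 0.726) and 0.06 in WT (SE 0.196, interval -0.39 to 0.50, adjusted p = 0.851).

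**Figure D1:**
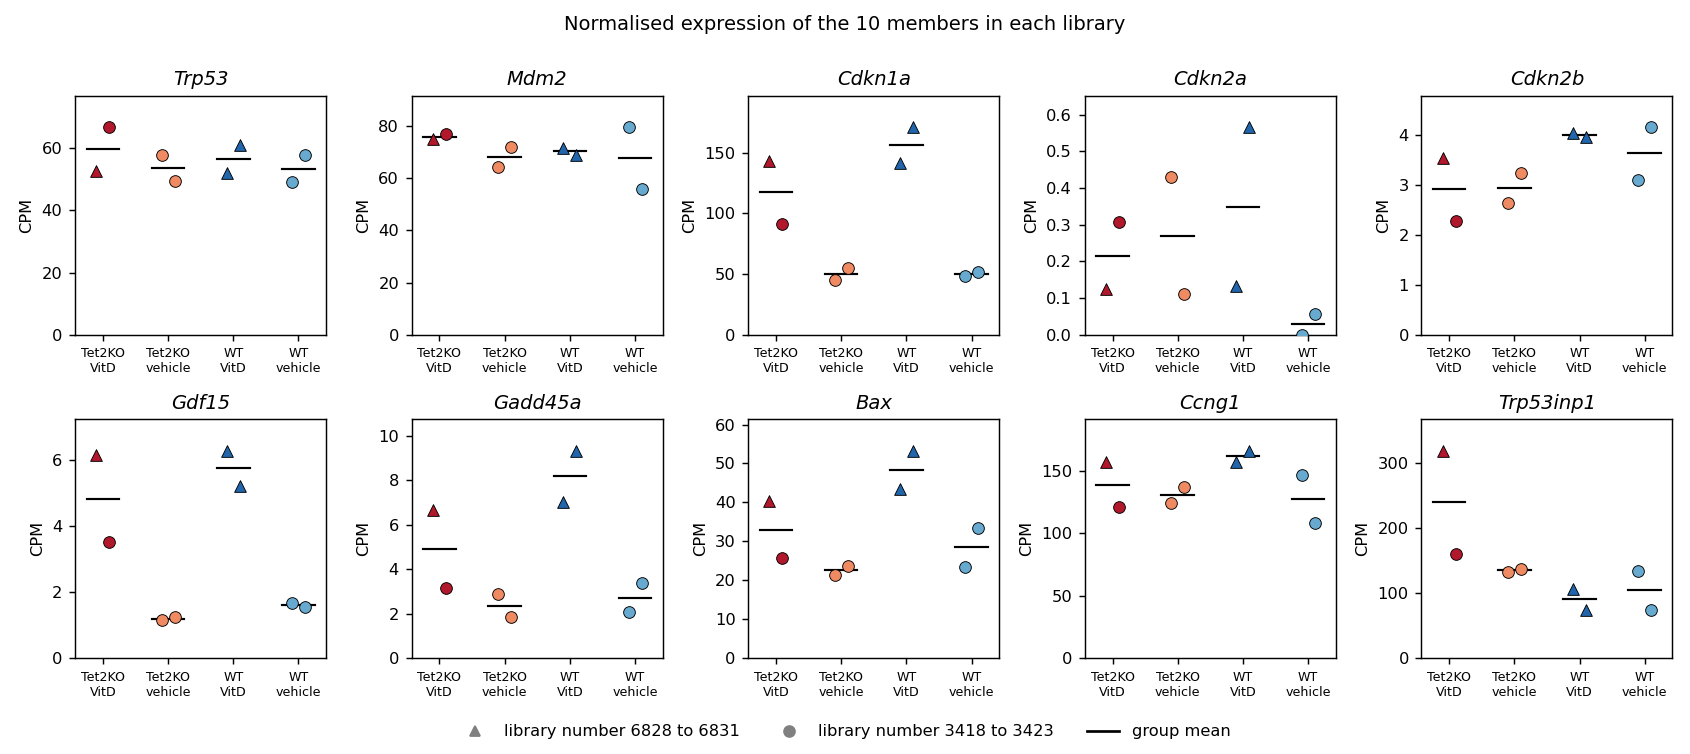
TMM-normalised CPM of the 10 genes in each library (points) by group, with the mean of 2 libraries as a bar. Triangles mark the 3 libraries whose names carry numbers of the higher range. Each panel has its own axis: Cdkn1a and Gdf15 lie higher in all 4 VitD libraries than in all 4 vehicle libraries, while Trp53 and Mdm2 mix.

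Among the genes that halt the cell cycle, Cdkn1a was higher in every VitD library. Cdkn1a (chromosome 17, 29090976 to 29100727, plus strand) encodes p21, an inhibitor of cyclin-dependent kinases. It had 143 and 91.4 CPM in Tet2KO_VitD against 45.2 and 54.9 CPM in Tet2KO_vehicle, and 141 and 171 CPM in WT_VitD against 48.5 and 52.1 CPM in WT_vehicle. The 4 vehicle libraries lie within a narrow band and the lowest VitD library, Tet2KO_VitD 2, stands well clear of it. The mean was 117 ± 36.4 CPM in Tet2KO_VitD and 50.1 ± 6.87 in Tet2KO_vehicle, and 156 ± 21.1 in WT_VitD and 50.3 ± 2.54 in WT_vehicle (SD, n = 2 each). In Tet2KO the ratio was 2.34 (log2 1.23, SE 0.239, interval 0.684 to 1.77), which did not pass the threshold of 0.05 (adjusted p = 0.0937). In WT Cdkn1a rose 3.10-fold (log2 1.63, SE 0.241, interval 1.09 to 2.18, adjusted p = 0.00710). Over both genotypes it rose 2.69-fold (log2 1.43, SE 0.170, adjusted p = 0.00201), higher in 4 of 4 VitD libraries than in any vehicle library.

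The WT call of Cdkn1a ended without WT_VitD 2 (adjusted p = 0.0708) or WT_vehicle 1 (0.0649), while the call over both genotypes held without any 1 library. Without Tet2KO_VitD 2 the log2 fold change in Tet2KO was 1.51, from Tet2KO_VitD 1 alone. Number range and treatment then coincide in Tet2KO as they do in WT. Once the number range of the library names entered as a covariate, Cdkn1a had a log2 of 0.87 in Tet2KO (adjusted p = 0.252) and 0.99 in WT (adjusted p = 0.298). Only Tet2KO_VitD holds libraries of both ranges, so the covariate was set by Tet2KO_VitD 1 against Tet2KO_VitD 2 alone. The WT value is the WT change less that difference, and no range effect was measured within WT. The Tet2KO value is in effect Tet2KO_VitD 2 over the Tet2KO_vehicle libraries, at 1.83 times their mean, and is no separate result.

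Of the Cdkn2a and Cdkn2b locus, Cdkn2b was not called and Cdkn2a was too low for the test. Cdkn2b (chromosome 4, 89306299 to 89311039, minus strand) encodes p15, which blocks the kinases of D-type cyclins. It had 3.54 and 2.29 CPM in Tet2KO_VitD against 2.64 and 3.24 CPM in Tet2KO_vehicle, and 4.04 and 3.96 CPM in WT_VitD against 3.11 and 4.16 CPM in WT_vehicle. The groups overlap in both genotypes. Its log2 fold change was -0.02 in Tet2KO (adjusted p = 0.982) and 0.14 in WT (SE 0.365, interval -0.69 to 0.96, adjusted p = 0.805), and in WT the sign turned to -0.49 under the number range covariate. Cdkn2a (chromosome 4, 89274471 to 89294653, minus strand) encodes p16 and, from another first exon, p19Arf, which the gene-level count cannot tell apart. It had 2 and 7 counts in Tet2KO_VitD, 7 and 2 in Tet2KO_vehicle, 2 and 10 in WT_VitD, and 0 and 1 in WT_vehicle. These counts lie at or near the floor of 3 counts per library in most libraries. The WT_VitD counts lie above those of WT_vehicle, as in 33.8% of all tested genes, and the Tet2KO groups overlap. A fit without the filter on low counts did not call Cdkn2a in Tet2KO (adjusted p = 1) or in WT (adjusted p = 0.147). A count of 0 allows up to 3 counts, 0.186 CPM in WT_vehicle 1, counting error only.

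Gdf15 and Gadd45a, stress genes that p53 is known to raise, were higher with VitD. Gdf15 (chromosome 8, 70629393 to 70632456, minus strand) encodes a secreted cytokine of stressed and senescent cells. It had 6.15 and 3.52 CPM in Tet2KO_VitD against 1.17 and 1.23 CPM in Tet2KO_vehicle, and 6.29 and 5.21 CPM in WT_VitD against 1.68 and 1.54 CPM in WT_vehicle. All 4 VitD libraries lie above all 4 vehicle libraries, and Tet2KO_VitD 2 is again the lowest of the VitD libraries. In Tet2KO the ratio was 4.002 (log2 2.001, SE 0.399, interval 1.10 to 2.91) without passing the threshold (adjusted p = 0.0983). Gdf15 rose 3.56-fold in WT (log2 1.83, SE 0.391, interval 0.946 to 2.72, adjusted p = 0.0190) and 3.78-fold over both genotypes (log2 1.92, SE 0.280, adjusted p = 0.00428).

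The WT call of Gdf15 ended without WT_VitD 1 (adjusted p = 0.0761), WT_VitD 2 (0.117), WT_vehicle 1 (0.0884) or WT_vehicle 2 (0.0760). Without Tet2KO_VitD 2 the log2 fold change in Tet2KO was 2.35, from Tet2KO_VitD 1 alone, where number range and treatment coincide. Over both genotypes the call held without any 1 library. Once the number range entered as a covariate, Gdf15 had a log2 of 1.55 in Tet2KO (adjusted p = 0.304) and 1.03 in WT (adjusted p = 0.585). The Tet2KO value again compares Tet2KO_VitD 2 alone with the Tet2KO_vehicle libraries, at 2.94 times their mean.

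Gadd45a (chromosome 6, 67035096 to 67037457, minus strand) encodes a damage-induced protein that acts in cell cycle arrest and DNA repair. It had 6.65 and 3.17 CPM in Tet2KO_VitD against 2.88 and 1.84 CPM in Tet2KO_vehicle, and 7.02 and 9.34 CPM in WT_VitD against 2.05 and 3.36 CPM in WT_vehicle. The groups are apart in each genotype, but Tet2KO_VitD 2 lies below WT_vehicle 2. In Tet2KO the log2 fold change was 1.05 (SE 0.459, adjusted p = 0.376). Gadd45a rose 3.01-fold in WT (log2 1.59, SE 0.457, interval 0.557 to 2.63, adjusted p = 0.0412) and 2.49-fold over both genotypes (log2 1.32, SE 0.324, adjusted p = 0.0208).

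The WT call of Gadd45a is close to the threshold. It ended without Tet2KO_vehicle 1 (adjusted p = 0.0574), Tet2KO_vehicle 2 (0.0567), WT_VitD 1 (0.0868), WT_VitD 2 (0.223), WT_vehicle 1 (0.191) or WT_vehicle 2 (0.0805). It also ended when a trend with exon length was taken out of each library (log2 1.39, adjusted p = 0.0580) and once the number range entered as a covariate (log2 0.52, adjusted p = 0.824). Over both genotypes it ended without Tet2KO_vehicle 2 (0.0745), WT_VitD 2 (0.0844) or WT_vehicle 1 (0.0733). The Gadd45a locus overlaps 337 exon bases of a gene on the opposite strand, as does Cdkn1a over 273 bases, and Bax shares 192 exon bases with a gene on the same strand. Whether counting used strand is not stated.

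Of the genes tied to cell death, Bax (chromosome 7, 45461697 to 45466898, minus strand), which permeabilises the outer mitochondrial membrane, rose over both genotypes. It had 40.3 and 25.7 CPM in Tet2KO_VitD against 21.4 and 23.7 CPM in Tet2KO_vehicle, and 43.4 and 53.3 CPM in WT_VitD against 23.4 and 33.4 CPM in WT_vehicle. VitD libraries lie above vehicle libraries within each genotype, but Tet2KO_VitD 2 lies below WT_vehicle 2. Over both genotypes Bax rose 1.58-fold (log2 0.66, SE 0.186, adjusted p = 0.0326). The log2 fold change was 0.55 in Tet2KO (adjusted p = 0.404) and 0.77 in WT (SE 0.262, interval 0.173 to 1.36, adjusted p = 0.0673). In edgeR's fit without the filter on low counts, Bax passed in WT, at a log2 of 0.80 (adjusted p = 0.00798). That fit gave Cdkn1a in WT an adjusted p of 2.19e-10, against 0.00710 with the filter, so its adjusted p-values are not on the same scale. Its count over all genes in WT is not given here, and the pass is not read as further support for Bax.

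The call of Bax over both genotypes ended without Tet2KO_VitD 1 (adjusted p = 0.0706), Tet2KO_vehicle 1 (0.105), Tet2KO_vehicle 2 (0.0794), WT_VitD 1 (0.0549), WT_VitD 2 (0.125) or WT_vehicle 1 (0.0998). With number range in the model it had a log2 of 0.15 (adjusted p = 0.882), and with the exon length trend removed 0.49 (adjusted p = 0.0684). In WT alone Bax was called without Tet2KO_VitD 1 (adjusted p = 0.0232) or Tet2KO_VitD 2 (0.0249).

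Ccng1 (chromosome 11, 40748552 to 40755311, minus strand) encodes cyclin G1, a p53 target that recruits a phosphatase to MDM2. It had 157 and 121 CPM in Tet2KO_VitD against 124 and 137 CPM in Tet2KO_vehicle, and 157 and 166 CPM in WT_VitD against 147 and 109 CPM in WT_vehicle. The groups overlap in Tet2KO and do not in WT, where the lower VitD library is close to the higher vehicle library. Its log2 fold change was 0.09 in Tet2KO (adjusted p = 0.867) and 0.34 in WT (SE 0.212, interval -0.14 to 0.82, adjusted p = 0.263). With the number range fitted it was -0.11 in Tet2KO and -0.04 in WT. Ccng1 and Cdkn1a, whose promoter windows are printed above with 1 mismatch each, thus differed in call: Cdkn1a passed the threshold in WT and Ccng1 did not, and the difference between the genes was not tested.

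Trp53inp1 (chromosome 4, 11156431 to 11174379, plus strand), a p53-induced nuclear protein that acts in cell death and autophagy, had its highest levels in Tet2KO_VitD. It had 320 and 161 CPM in Tet2KO_VitD against 133 and 138 CPM in Tet2KO_vehicle, and 106 and 74.7 CPM in WT_VitD against 134 and 74.2 CPM in WT_vehicle. Tet2KO_VitD 1 is far above every other library, Tet2KO_VitD 2 is the next highest, and the WT groups overlap. The log2 fold change of VitD over vehicle was 0.83 in Tet2KO (SE 0.368, adjusted p = 0.377) and -0.20 in WT (SE 0.367, interval -1.04 to 0.63, adjusted p = 0.707). Without Tet2KO_VitD 2 the log2 fold change in Tet2KO was 1.24, from Tet2KO_VitD 1 alone, where number range and treatment coincide. Without Tet2KO_VitD 1 it was 0.26. With the number range fitted, the log2 fold change of Trp53inp1 was 0.25 in Tet2KO and -1.20 in WT. That WT value is the WT change less the difference between Tet2KO_VitD 1 and Tet2KO_VitD 2, not a change measured within WT. The 4 endothelial markers Pecam1, Cdh5, Kdr and Vwf summed to 4020 CPM in Tet2KO_VitD 1, against 1161 CPM in Tet2KO_VitD 2 and 1163 to 2460 CPM in the other 6 libraries. The 4 adipocyte markers summed to 243 CPM in Tet2KO_VitD 1 and 718 to 1184 CPM in the other 7. Tet2KO_VitD 1 also had 99 counts of the mitochondrial rRNA gene mt-Rnr2, against 8664 to 22346 in the other 7. The part of these features in the value of Trp53inp1 was not tested.

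**Figure D2:**
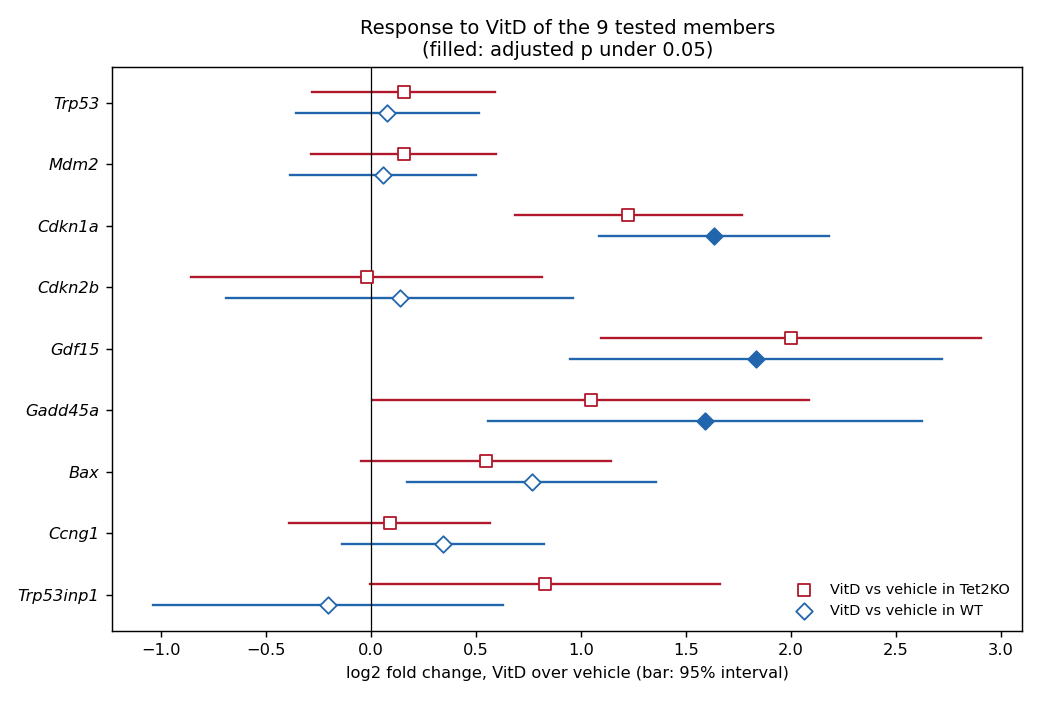
Log2 fold change of VitD over vehicle for the 9 tested genes in the libraries labelled Tet2KO and in WT, with 95% intervals from edgeR's fit of all 8 libraries. Filled points passed an adjusted p of 0.05, which in WT are Cdkn1a (1.63), Gdf15 (1.83) and Gadd45a (1.59), while no gene passed it in Tet2KO.

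In Tet2KO, edgeR called 0 of the 9 genes, and 0.198% of all genes, 0.179% higher and 0.0185% lower. At an unadjusted p under 0.05 there were 3 of the 9 (Cdkn1a, Gdf15 and Gadd45a) and 13.3% of all genes, and DESeq2 called 2, Cdkn1a and Gdf15, among 432 of all genes. Mdm2, Cdkn1a, Gdf15, Gadd45a, Bax and Trp53inp1 did not overlap between VitD and vehicle in Tet2KO, all higher with VitD, against 23.7% of all genes in that direction. The median log2 fold change was 0.55 over the 9 genes and -0.01 over all genes.

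In WT, 3 of the 9 tested genes were called, all higher with VitD, where 20.1% of all tested genes were called, 10.6% higher and 9.47% lower. At an unadjusted p under 0.05 there were 4 of the 9, and 38% of all genes. DESeq2 called 4 of the 9 in WT. Its share over all genes is not given here, so that count is not read as a result about these genes. Cdkn1a, Gdf15, Gadd45a, Bax and Ccng1 did not overlap between VitD and vehicle in WT, all higher with VitD, and 33.8% of all tested genes lay apart in that direction and 35.3% in the other. The median log2 fold change was 0.34 over the 9 genes and -0.03 over all tested genes. Over both genotypes 4 of 9 were called, all higher, against 25.5% of all genes called, 13.9% higher and 11.6% lower, with 4 of the 9 and 41.2% of all genes at an unadjusted p under 0.05. Only Cdkn1a and Gdf15 kept all 4 VitD libraries above all 4 vehicle libraries, which 12.6% of all genes did. The Tet2KO and WT contrasts share no library.

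Under the number range covariate, 0 of the 9 genes were called in Tet2KO, in WT or over both genotypes, where the fit called 20, 58 and 114 of all genes. The covariate rests on Tet2KO_VitD 1 against Tet2KO_VitD 2 alone, so its WT values hold no range effect measured in WT. Its Tet2KO values and the comparison within the lower range below rest on the same library, Tet2KO_VitD 2. Within the lower range the only VitD library, Tet2KO_VitD 2, stood above all 4 vehicle libraries in Trp53 (66.8 CPM against 49.1 to 57.9 CPM), Cdkn1a (91.4 against 45.2 to 54.9 CPM), Gdf15 (3.52 against 1.17 to 1.68 CPM) and Trp53inp1 (161 against 74.2 to 138 CPM). It stood below all 4 in Cdkn2b and within their range in Mdm2, Gadd45a, Bax, Ccng1 and Cdkn2a. Of all tested genes 21.5% lay above and 21.1% below. Where the number range is shared, Cdkn1a and Gdf15 are thus above the vehicle libraries of both genotypes, each by 1 library that has no replicate in that range. Gadd45a and Bax are within that range only through WT_vehicle 2, at 3.36 and 33.4 CPM. Against Tet2KO_vehicle alone, Tet2KO_VitD 2 is above both libraries in Gadd45a (3.17 against 2.88 and 1.84 CPM) and in Bax (25.7 against 21.4 and 23.7 CPM).

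**Figure D3:**
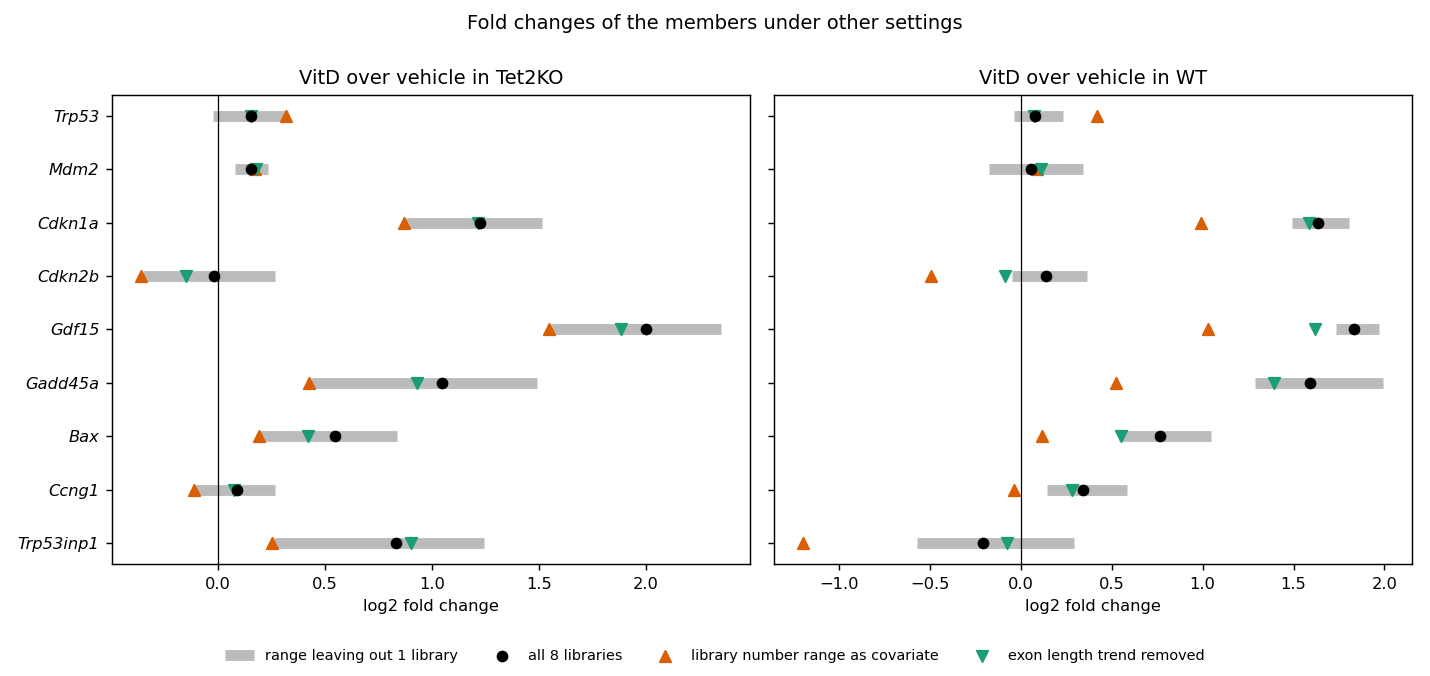
Log2 fold change of VitD over vehicle for the 9 tested genes in the fit of all libraries, over the fits that leave out 1 library (range), with the number range of the library names as a covariate, and with the trend with exon length removed. In WT, Cdkn1a is at 1.63 without and 0.99 with the covariate, Gdf15 at 1.83 and 1.03, and Bax at 0.77 and 0.12. The covariate is estimated from Tet2KO_VitD 1 against Tet2KO_VitD 2 alone, in WT as well.

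Levels can be set against each other only per length of transcript, as reads per kilobase of exon at a common library size (RPKM). In WT_vehicle the mean RPKM ran in the order Ccng1 36.3, Bax 18.0, Trp53inp1 16.1, Cdkn1a 14.1, Mdm2 13.3, Trp53 13.2, Cdkn2b 2.61, Gadd45a 1.53, Gdf15 0.868 and Cdkn2a 0.0243. From Bax to Trp53 neighbours overlap between the 2 libraries and their order is not resolved. In WT_VitD the mean of Cdkn1a was 43.9 RPKM, next to Ccng1 at 46.1 RPKM, with their libraries overlapping, and above Bax at 30.7 RPKM. Gadd45a at 4.64 RPKM and Gdf15 at 3.10 RPKM stood above Cdkn2b at 2.88 RPKM there, and the libraries of Gdf15 and Cdkn2b overlap. In Tet2KO_VitD the highest means were those of Ccng1 at 39.6, Trp53inp1 at 37.1, Cdkn1a at 33.0 and Bax at 20.95 RPKM. The libraries of Ccng1, Trp53inp1 and Cdkn1a overlap there, as do those of Trp53inp1 and Bax, so their order is not resolved.

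Between genotypes, edgeR called 0 of the 9 genes under either treatment. Under vehicle 0 of all 16194 genes were called, with 0 of the 9 and 2.97% of all genes at an unadjusted p under 0.05, and DESeq2 called 0 of the 9 and 13 genes in all. Gdf15 had 1.17 and 1.23 CPM in Tet2KO_vehicle against 1.68 and 1.54 CPM in WT_vehicle, a log2 fold change of -0.42 with groups that do not overlap, as in 15.5% of all genes in that direction. Under VitD 1 of the 9, Trp53inp1, and 10.6% of all genes had an unadjusted p under 0.05. DESeq2 called that gene (adjusted p = 0.0323), among other genes whose number is given in the closing section. Trp53inp1 had 320 and 161 CPM in Tet2KO_VitD against 106 and 74.7 CPM in WT_VitD. The groups are apart, and the ratio was 2.66 (log2 1.41, SE 0.373, interval 0.565 to 2.25, unadjusted p = 0.00441, adjusted p = 0.457). Without Tet2KO_VitD 1 it was 0.82 on the log2 scale (adjusted p = 0.188). In the higher number range, Tet2KO_VitD 1 had 3.54 times the mean of the WT_VitD libraries.

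In all, 4 other genes lay lower in Tet2KO_VitD than in WT_VitD without overlap, against 21.6% of all genes in that direction. These were Gadd45a with a log2 fold change of -0.75, Bax with -0.55, Cdkn2b with -0.46 and Ccng1 with -0.22, none of them called. Ccng1 is apart only by 157.195 CPM in Tet2KO_VitD 1 against 157.203 CPM in WT_VitD 1. Tet2KO_VitD 2 lies in the lower number range and both WT_VitD libraries in the higher, so genotype and range are mixed here. Within the higher range, Tet2KO_VitD 1 had 0.81, 0.83, 0.89 and 0.97 times the WT_VitD mean, in the same order. Cdkn1a had -0.41 with overlapping groups, and Mdm2 lay higher without overlap at 0.11, as did Trp53inp1, against 22.2% of all genes. Whether VitD acted differently in the genotypes was tested as an interaction, which edgeR called for 0 of the 9 genes and 0 of all genes, with 0 of the 9 and 6.21% of all genes at an unadjusted p under 0.05 and 0 of the 9 by DESeq2. The interaction was 1.03 for Trp53inp1 (SE 0.519, unadjusted p = 0.0777, adjusted p = 0.803) and -0.41 for Cdkn1a (adjusted p = 0.875). The calls in WT that are missing in Tet2KO do not show a difference between the genotypes.

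Counts of called list genes below are to be read against the same fits over all 16194 tested genes. The lists were chosen with earlier results of these data known, so their shares against all genes are descriptions and not tests. In WT 10.6% of all genes rose and 9.47% fell, 1718 and 1533 genes, with a median log2 fold change of -0.03. The rises and falls over all genes were 768 and 239 without WT_VitD 1, 137 and 3 without WT_VitD 2, 195 and 31 without WT_vehicle 1, and 368 and 226 without WT_vehicle 2. They were 2593 and 2353 without Tet2KO_VitD 1, 2532 and 2395 without Tet2KO_VitD 2, 1144 and 852 without Tet2KO_vehicle 1, 1148 and 871 without Tet2KO_vehicle 2, and 56 and 2 under the number range covariate. List counts moved with these totals, and nothing particular to a list is read from their changes. Some list genes passed the filter on low counts only through VitD libraries, where they are high. Among them are Il6, Cxcl2, Cxcl5, Tnf and Mmp13 of the secreted factors and Bcl2a1b of the BCL2 family. Others are Bub1 and Cdc25c of the proliferation genes and Dyrk3 of the p53 targets. Rises of such genes are no support for a list, and the list counts and medians below still include them.

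Other known p53 targets that were called mostly rose. Over both genotypes 10 rose and 1 fell, against 13.9% and 11.6% of all genes. Of 31 tested targets, 0 were called in Tet2KO, with a median log2 fold change of 0.17. In WT 7 rose and 1 fell, with a median of 0.33, against 10.6% of all genes that rose and 9.47% that fell. Rps27l, a ribosomal protein paralog that acts on MDM2, rose by a log2 of 1.24 (adjusted p = 0.0131), Ddit4, an inhibitor of mTORC1, by 1.75 (adjusted p = 0.0145), the small GTPase gene Rap2b by 0.996 (adjusted p = 0.0204) and the kinase gene Plk2 by 1.98 (adjusted p = 0.0204). Zfp365, a gene of DNA replication stress, fell by 0.93 on the log2 scale (adjusted p = 0.0302). It is the single target that fell, named after its value was seen. The counts were 1 higher and 0 lower without WT_VitD 1 or WT_vehicle 2, 0 without WT_VitD 2 or WT_vehicle 1, and 12 and 11 higher without Tet2KO_VitD 1 and 2, with 0 under the number range covariate.

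Of 14 regulators of p53, 0 were called in Tet2KO, with a median of 0.06, and 0 rose and 4 fell in WT, with a median of -0.20, against 9.47% of all genes that fell. At an unadjusted p under 0.05 there were 5 of the 14 in WT, and 38% of all genes. Genes with longer exons ran lower in WT_VitD: the Spearman correlation of exon length with deviation was -0.313 and -0.222. It was 0.229 and -0.0219 in WT_vehicle. What part this trend has in the falls is not shown here. Trp53bp1, a DNA break sensor that binds p53, fell by 1.32 on the log2 scale (adjusted p = 0.0134). Mdm4, the MDM2 relative that masks the activation domain of p53, had 84.0 and 107 CPM in Tet2KO_VitD against 129 and 148 CPM in Tet2KO_vehicle, and 69.9 and 73.4 CPM in WT_VitD against 157 and 131 CPM in WT_vehicle. Its VitD values lie below its vehicle values in both genotypes, and its log2 fold change was -0.54 in Tet2KO (adjusted p = 0.297) and -1.01 in WT (adjusted p = 0.0144). The acetyltransferase genes Crebbp and Ep300 fell by 0.77 on the log2 scale (adjusted p = 0.0205) and 0.57 (adjusted p = 0.0448). Without WT_VitD 1 or WT_vehicle 2 the count of falls was 1, and without WT_VitD 2 or WT_vehicle 1 it was 0, as with the number range covariate.

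Genes of proliferation, which p21 is known to lower through the RB family, rose in WT. In Tet2KO 0 of 15 tested were called by edgeR, with a median of 1.61, while DESeq2 called 6. In WT 14 of the 15 rose and 0 fell, with a median of 2.41, where 10.6% of all genes rose. The mitotic kinase gene Plk1 rose by a log2 of 3.05 (adjusted p = 0.00667), Birc5 (survivin) by 2.61 (adjusted p = 0.00676), the replication helicase gene Mcm5 by 2.11 (adjusted p = 0.00930) and Ccnb1 (cyclin B1) by 2.93 (adjusted p = 0.00967). Ccnb1 had 7.95 and 3.92 CPM in Tet2KO_VitD against 1.47 and 1.01 CPM in Tet2KO_vehicle, and 10.5 and 13.9 CPM in WT_VitD against 2.11 and 1.08 CPM in WT_vehicle. As with Cdkn1a, all 4 VitD libraries lie above all 4 vehicle libraries. The count was 0 without WT_VitD 2, 7 without WT_vehicle 1, 2 without WT_vehicle 2 and 0 with number range in the model, where the median was 1.81. The 5 T cell and thymocyte markers (Cd3e, Cd4, Rag1, Dntt and Ptcra) summed to 1.80 to 2.29 CPM in Tet2KO_VitD against 9.94 to 19.5 CPM in Tet2KO_vehicle, and to 2.91 to 3.06 CPM in WT_VitD against 67.4 CPM in WT_vehicle 1 and 2.39 CPM in WT_vehicle 2. Of the 4 tested, 2 were called lower in WT, and Ptcra and Dntt are at 0 counts in several VitD libraries. The same WT_vehicle 1 was higher than WT_vehicle 2 in the proliferation genes Mki67 (13.6 against 2.91 CPM) and Top2a (12.6 against 3.25 CPM), which are named after their values were seen. The part of T cells and thymocytes in these levels was not tested.

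Among 16 other genes of cyclin-dependent kinase inhibition and the RB pathway, 0 were called in Tet2KO, with a median of 0.12, and 3 rose and 2 fell in WT, with a median of 0.46, where 10.6% of all genes rose and 9.47% fell. E2f1, an S phase transcription factor, rose by a log2 of 1.37 (adjusted p = 0.0200) and Ccne1 (cyclin E1) by 2.44 (adjusted p = 0.0202). Rbl2, the RB relative p130 of resting cells, fell by 0.60 on the log2 scale (adjusted p = 0.0384) and Ccnd2 (cyclin D2) by 0.62 (adjusted p = 0.0423). The rises numbered 1 without WT_VitD 1, 0 without WT_VitD 2 or either WT_vehicle library, and 6 without either Tet2KO_VitD library. The falls numbered 0 without any 1 of the WT or Tet2KO_vehicle libraries, and both counts were 0 with the number range fitted.

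Secreted factors known from senescent cells held the only list genes called in Tet2KO. Of 21 tested, 2 rose in Tet2KO (median 1.38), and 15 rose and 1 fell in WT (median 2.31). Over all genes 0.179% rose in Tet2KO and 10.6% in WT. Ccl2, a monocyte chemokine, rose by a log2 of 3.01 in Tet2KO (adjusted p = 0.0236) and 4.57 in WT (adjusted p = 0.00203), and Mmp3, a matrix protease, by 2.02 in Tet2KO (adjusted p = 0.0171) and 2.31 in WT (adjusted p = 0.00273). The chemokine gene Ccl8 rose by a log2 of 4.98 in WT (adjusted p = 0.00267). Il6, a cytokine gene, had 43 and 182 counts in Tet2KO_VitD against 5 and 3 in Tet2KO_vehicle, and 110 and 206 counts in WT_VitD against 0 and 2 in WT_vehicle. Il6 did not pass in Tet2KO (adjusted p = 0.0659) and rose in WT (adjusted p = 0.00432). With at most 5 counts in any vehicle library, Il6 entered the test only through VitD libraries, so its rise is no support for the list. The same holds for Cxcl2 (at most 8 counts in any vehicle library), Cxcl5 (at most 6), Tnf (at most 7) and Mmp13 (at most 13). The counts and medians of this list include these genes, so they overstate what the list shows. Vegfa, an angiogenic factor named after its value was seen, fell by 1.03 on the log2 scale (adjusted p = 0.0290). The WT count of rises was 6 without WT_VitD 2 or WT_vehicle 1 and 10 without WT_vehicle 2. It was 3 under the number range covariate, which left the Tet2KO count at 2. In Tet2KO it was 7 without Tet2KO_VitD 2 and 0 without any 1 of the 4 vehicle libraries. Macrophages also secrete many of these factors: all 5 macrophage markers were called higher in WT, and their summed level, given above, was higher in VitD than in vehicle libraries in both genotypes. Neutrophil markers summed to 16.0 to 25.8 CPM in Tet2KO_VitD against 9.27 to 13.3 CPM in Tet2KO_vehicle, and 38.2 to 68.5 CPM in WT_VitD against 4.22 to 8.89 CPM in WT_vehicle. The part of these cells in the rises of the secreted factors, and of Cdkn1a, Gdf15 and Gadd45a, was not tested.

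**Figure D4:**
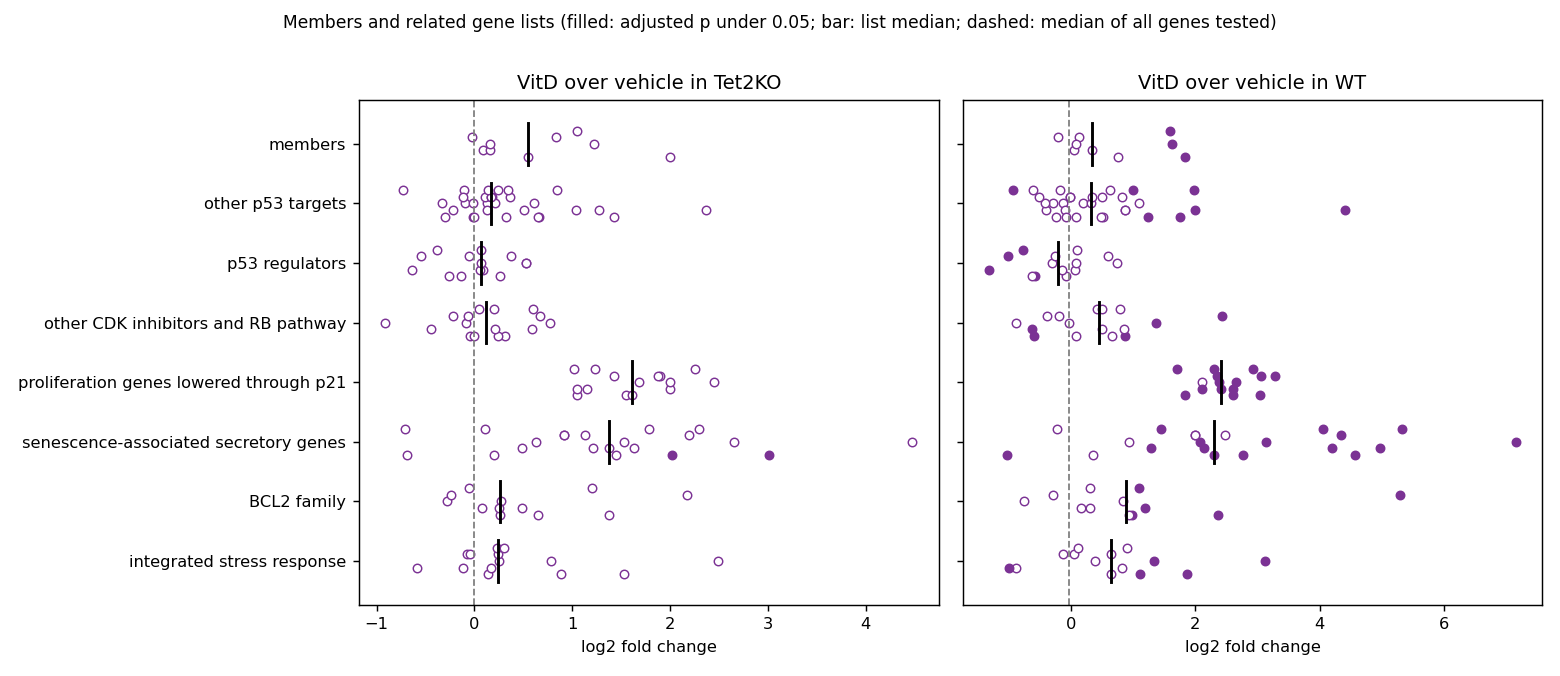
Log2 fold change of VitD over vehicle for each tested gene (points) of the 10-gene group and of 7 related lists, in Tet2KO and in WT, with the median of each list as a line. Proliferation genes (median 2.41 in WT) and secreted factors (2.31) lie farthest from 0 and p53 regulators (-0.20) below it.

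The BCL2 family, to which Bax belongs, had 0 calls among 12 tested genes in Tet2KO, with a median of 0.27, and 5 rises and 0 falls in WT, with a median of 0.89, against 10.6% of all genes that rose. Bok and Bak1, death effectors related to Bax, rose by a log2 of 2.37 (adjusted p = 0.0122) and 1.19 (adjusted p = 0.0126), and Bad, a BH3-only gene, by 0.98 (adjusted p = 0.0388). Bcl2a1b, a survival gene with near-identical copies between which reads could be split, had 14 and 34 counts in WT_VitD against 0 and 1 in WT_vehicle, so its value is uncertain. With at most 3 counts in any other library, Bcl2a1b entered the test only through WT_VitD, where it is high. It is therefore no support for a rise of this list. The count was 3 without either Tet2KO_vehicle library or WT_VitD 1, 0 without WT_VitD 2 or WT_vehicle 1, 1 without WT_vehicle 2, and 0 with number range in the model.

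The integrated stress response, another known inducer of Gdf15, had 0 calls among 14 tested genes in Tet2KO, with a median of 0.24, and 4 rises and 1 fall in WT, with a median of 0.64, against 10.6% and 9.47% of all genes. The serine synthesis gene Psat1 rose by a log2 of 1.86 (adjusted p = 0.00441), Asns (asparagine synthetase) by 1.11 (adjusted p = 0.0223), the stress regulator gene Nupr1 by 1.34 (adjusted p = 0.0269) and the cystine transporter gene Slc7a11 by 3.12 (adjusted p = 0.0280). Ddit3, which encodes the stress factor CHOP, fell by 0.995 on the log2 scale (adjusted p = 0.0377) and is named after its value was seen. The rises numbered 2 without WT_VitD 1 or WT_vehicle 2, 1 without WT_VitD 2 or WT_vehicle 1, and 0 with the number range fitted.

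Among 12 tested paralogs of the 10 genes, 0 were called in Tet2KO, with a median of 0.11, and in WT 3 rose (Bok, Bak1 and Cdkn2c) and 1 fell (Mdm4), with a median of 0.37, against 10.6% and 9.47% of all genes. Cdkn2c, which encodes the inhibitor p18 related to Cdkn2a and Cdkn2b, rose by a log2 of 0.86 in WT (adjusted p = 0.0429). All of these called paralogs also belong to lists above: Bok and Bak1 to the BCL2 family, Cdkn2c to the RB pathway list and Mdm4 to the regulators. They are the same calls counted again. The rises of paralogs numbered 0 without WT_VitD 2 or WT_vehicle 1 and under the number range covariate, and 2 or 1 without the other WT or Tet2KO_vehicle libraries.

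At an unadjusted p under 0.05, which 13.3% of all genes reached in Tet2KO, the lists without an edgeR call in Tet2KO held there 6 of 31 other p53 targets, 2 of 14 regulators, 12 of 15 proliferation genes, 3 of 16 genes of the RB pathway, 4 of 12 BCL2 family genes, 3 of 14 genes of the stress response and 3 of 12 paralogs. The shares of the other p53 targets, the regulators and the RB pathway genes are near that of all genes. DESeq2 called 2, 0, 6, 0, 2, 1 and 1 members of these lists, and 432 of all genes. Without Tet2KO_VitD 2, edgeR called 6 rises and 1 fall among the p53 targets, 1 fall among the regulators and 8 rises among the proliferation genes. In the same fit it called 2 rises and 1 fall in the RB pathway list, 3 rises each in the BCL2 family, the stress response and the paralogs, and 1026 rises and 872 falls over all genes.

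The 3 genes below had library profiles closest to that of Cdkn1a by Pearson correlation of log2(CPM + 1) over the 8 libraries: Cks2, a partner of cyclin-dependent kinases (0.997), the centromere protein gene Cenpm (0.996) and Plaur, the urokinase receptor (0.996). For Gdf15 they were Rars, an aminoacyl-tRNA synthetase (0.987), the cytochrome P450 gene Cyp2b10 (0.986) and Slc3a2, an amino acid transporter subunit (0.982). For Trp53 they were Hivep3 (0.961), Thbs4 (0.956) and Hnrnpul1 (0.936). All are picked as the highest of 13176 genes. For Cdkn1a and Gdf15 the libraries fall into a VitD and a vehicle cluster, so these values mostly compare the treatments, and they share the library and its depth.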

How the data were processed

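Counts per gene symbol were deposited by the authors. The submitters' processing notes list featureCounts 2.0.2, STAR 2.7.8a, Trimmomatic 0.39 and mm10; the labels' protocols name TruSeq stranded poly-A libraries. The annotation release, strand setting and handling of multi-mapping reads are not given here.

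Counts of all 8 libraries, grouped by sample title, were fitted with edgeR 4.0.16 (R 4.3.3): TMM normalisation, filterByExpr, 1 mean per group, 4 residual degrees of freedom and 6 contrasts, by the quasi-likelihood test with Benjamini-Hochberg adjustment over 16194 genes and a threshold of 0.05. The SE is the log2 fold change divided by the square root of F, and 95% intervals use the t distribution. CPM is TMM-normalised. RPKM uses GENCODE M21 exon lengths, where 95.5% of symbols matched exactly 1 gene. Promoter sequences are RefSeq's. The procedure was tested on simulated data.

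The members and all lists were chosen with earlier results of these data known. Up to 4 called genes per list, those with the smallest p in WT, were named, unless said otherwise. Alternatives were DESeq2 size factors, DESeq2 1.42.0, no filter, the replicate number as a block, the number range of the library names as a covariate and leaving out each library. Removal of a per-library trend with exon length, and the list counts under each alternative, were added after seeing the data. Where a left-out library leaves a group with 1, that library is taken to vary like the other groups.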

Additional observations from a re-analysis of the deposited data

How the results depend on the processing

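For the counts, DESeq2 size factors changed no call of the values reported for the 10 genes. The number range covariate left 0 of the 9 genes called in WT and over both genotypes, and of all genes 20 called in Tet2KO, 58 in WT, 114 over both, 16 between genotypes under VitD and 7 for the interaction. It turned the log2 fold change of Ccng1 to -0.11 in Tet2KO and -0.036 in WT, and that of Cdkn2b to -0.49 in WT. The covariate is estimated from Tet2KO_VitD 1 against Tet2KO_VitD 2 alone, so its WT values carry over a difference seen in Tet2KO. Without the filter, 3 of the 9 were called in Tet2KO and 1 under VitD between genotypes, and of all genes 1225 in Tet2KO, 164 between genotypes under vehicle, 610 under VitD and 403 for the interaction. DESeq2 called 2 of the 9 in Tet2KO and 1 between genotypes under VitD, and of all genes 432, 13 under vehicle, 89 under VitD and 14 for the interaction. With the exon length trend removed, Cdkn2b in WT turned to -0.085. Leaving out 1 library gave 0 to 3 of the 9 called in Tet2KO, 0 to 4 in WT and 2 to 4 over both. Of all genes it gave 0 to 1898, 140 to 4946 and 902 to 6448 in the same order, 0 to 674 between genotypes under VitD and 0 to 37 for the interaction. In Tet2KO these fits spanned -0.026 to 0.32 on the log2 scale for Trp53, -0.35 to 0.27 for Cdkn2b and -0.10 to 0.27 for Ccng1. In WT they spanned -0.038 to 0.23 for Trp53, -0.18 to 0.34 for Mdm2, -0.049 to 0.36 for Cdkn2b and -0.57 to 0.29 for Trp53inp1. The cause of these shifts was not tested. Groups of 2 libraries with 4 residual degrees of freedom limit the precision, and Cdkn2a lies near the floor of 3 counts.

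Replicate numbers 1 and 2 recur in each group, but no label says that they pair samples. Deviations from group means of same-numbered libraries correlated between -0.19 (Tet2KO_vehicle with WT_vehicle) and 0.17 (Tet2KO_VitD with WT_vehicle). With the number as a replicate block, 0 of the 9 genes were called in Tet2KO (24 of all genes), 2 in WT (2474), 4 over both genotypes (3549) and 0 in the other comparisons. Gadd45a in WT lost its call under the block (adjusted p = 0.0569), and no other reported value of the 10 genes changed its call.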
